A study of Homo sapiens with 12 samples.

Results

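MESH1 was silenced by itself in RCC4 cells and compared with a non-targeting siRNA, and the comparison rests on the 3 arrays of MESH1-silenced cells (siMESH1) and the 3 arrays of the non-targeting control (siNT), chosen by their labels from 12 arrays in all. RCC4 cells are a long-used kidney cancer line, of the clear cell type, without a working VHL protein. The series also held 3 arrays of ATF4-silenced cells (siATF4) and 3 arrays of cells that received both siRNAs (siMESH1+siATF4), and it asked how the transcriptional response to MESH1 loss relates to ATF4. Per the labels a culture took 40 pmol of siRNA, with no word on how this was divided where both siRNAs were given, and was harvested after 72 h in high-glucose DMEM with serum, and RNA was read on Affymetrix human expression arrays. By its maker's catalogue prefix siMESH1 was an individual siRNA and siATF4 a pool, siNT was the AllStars negative control, delivery was transient with Lipofectamine RNAiMAX, and effects of that individual siRNA on other targets cannot be told apart from loss of MESH1. The replicates are biological per the labels, and 3 arrays per group limit the precision of every value.

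MESH1, the product of HDDC3, is a cytosolic phosphatase that turns NADPH into NADH, so it draws on the pool of reducing power used for glutathione, thioredoxin and lipid synthesis. Its bacterial relatives of the SpoT family break down the alarmone ppGpp, which slows growth and DNA synthesis in starved bacteria. ATF4 is the transcription factor of the integrated stress response, which limits translation and raises amino acid synthesis and transport genes when cells are starved or stressed.

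The deposited values are log2 signals minus the siNT mean of the same probe set, so a value of 1 is a doubling against siNT, siNT arrays scatter around 0, and levels of different genes cannot be set against each other. A gene is the mean of its probe sets that carry exactly 1 symbol, which gave 11963 genes. Changes are given on the log2 scale with their standard error (SE), and a gene was called when its limma p, adjusted across the whole table by Benjamini and Hochberg, was under 0.05 and the change reached at least 0.5. HDDC3 itself had 0 named probe sets, so its silencing was not checked here, and the renal origin of the cells could not be checked either because the table holds differences and no levels. Array medians lay between 0.025 and 0.030 in siMESH1 and between -0.0086 and 0.012 in siNT. The ACTB control probe sets, whose 3' minus 5' difference reflects RNA integrity and labelling, read -0.278, 0.008 and -0.065 in siMESH1, against 0.062, -0.063 and 0.002 in siNT, and siMESH1 replicate 1 was thus the lowest of the 6. The same difference for GAPDH lay between -0.022 and 0.214 in siMESH1 and between -0.023 and 0.019 in siNT, and its part in the results was not tested.

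Silencing MESH1 changed many genes, and the large changes were falls. Of 11963 genes 980 were called (8.19%), 337 of them higher (2.82%) and 643 lower (5.37%). The median over all genes was 0.028, and the middle of the distribution was narrow, with a 25th percentile of -0.10 and a 75th of 0.14. The tails were unequal, with a 1st percentile of -1.37 and a 99th of 0.69. Falls of at least 1 on the log2 scale were found for 218 genes, falls of at least 1.5 for 86 and falls of at least 2 for 29, whereas rises of these sizes were found for 21, 4 and 1 genes. Called falls had a median of -0.78 and called rises a median of 0.63. The 3 siMESH1 arrays lay wholly outside the range of the 3 siNT arrays for all 337 genes called higher and for 642 of the 643 called lower, against 5390 of all genes tested (45.1%). The balance of rises and falls rests on the scaling of the arrays. Centring each array on the mean of 11 housekeeping genes, which lay at -0.331 in siMESH1, gave 2526 genes higher and 291 lower, and centring on their median of -0.212 gave 1216 higher and 375 lower. TFRC (-1.17), HPRT1 (-0.66) and PGK1 (-0.53) of that housekeeping list were themselves called lower on the deposited scale.

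**Figure D1:**
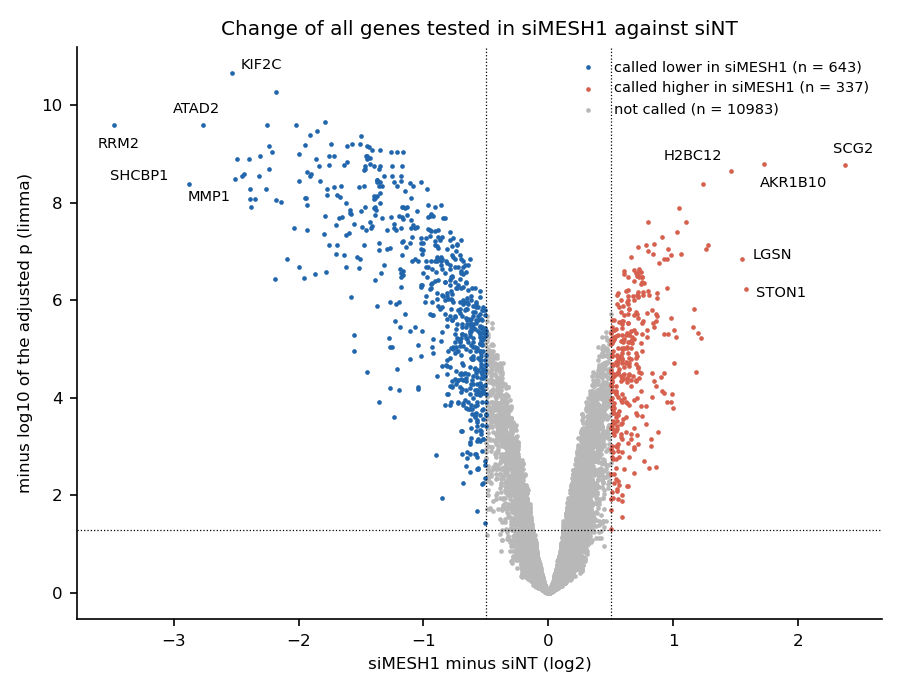
Change of each of 11963 genes in siMESH1 minus siNT on the log2 scale (horizontal axis) against minus log10 of the limma adjusted p (vertical axis), with dotted lines at the thresholds of a call. The 643 genes called lower reach further from 0 than the 337 called higher, with RRM2 at -3.48 and SCG2 at 2.38 as the ends.

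The genes with the largest falls serve the making and sharing out of DNA. RRM2, one part of the ribonucleotide reductase that makes deoxyribonucleotides, read -3.66, -3.38 and -3.41 in siMESH1, against 0.15, -0.10 and -0.051 in siNT, an 11.2-fold fall (-3.48, SE 0.10, limma adjusted p = 2.6e-10). Both of its probe sets showed it, at -3.60 and -3.37. SHCBP1, a SHC-binding protein of the midbody, read -2.90, -2.90 and -2.84 in siMESH1 and 0.085, -0.074 and -0.011 in siNT. ATAD2, a chromatin ATPase with a bromodomain, read -2.90, -2.63 and -2.78 in siMESH1 and -0.048, 0.10 and -0.053 in siNT. KIF2C, a kinesin that takes apart microtubules at centromeres, had the smallest adjusted p of all genes, reading -2.49, -2.54 and -2.55 in siMESH1, against 0.013, 0.025 and -0.038 in siNT (-2.53, SE 0.052, limma adjusted p = 2.2e-11). In each of these genes the siMESH1 arrays lay close together and far below the siNT arrays.

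The next falls were of the same kind, with a single exception. The centromere protein CENPU (-2.51), the mitotic kinase PBK (-2.49), the condensin subunit NCAPG (-2.45), the spindle protein DLGAP5 (-2.44), the checkpoint protein MAD2L1 (-2.40), the kinetochore subunits SPC25 (-2.39) and NDC80 (-2.32), the origin factor MCM10 (-2.38), the ubiquitin ligase adaptor DTL (-2.35) and the anaphase activator CDC20 (-2.31) fell between 4.96-fold and 5.7-fold. MMP1, the interstitial collagenase, is no cell cycle gene and fell as far, at -2.58, -2.19 and -2.40 in siMESH1, against 0.04, -0.066 and 0.026 in siNT (-2.39, SE 0.11, limma adjusted p = 5.2e-09).

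The largest rises came from genes of unrelated functions. SCG2, a granin of secretory granules, read 2.28, 2.42 and 2.44 in siMESH1, against -0.13, 0.25 and -0.12 in siNT, a 5.21-fold rise (2.38, SE 0.094, limma adjusted p = 1.7e-09). AKR1B10, an aldo-keto reductase that uses NADPH to reduce aldehydes and retinal, read 1.71, 1.78 and 1.71 in siMESH1 and 0.038, 0.0017 and -0.04 in siNT. The endocytic adaptor STON1 read 1.40, 1.81 and 1.53 in siMESH1 and -0.28, 0.26 and 0.021 in siNT, the widest spread among these rises. LGSN, a lens protein related to glutamine synthetase, read 1.66, 1.62 and 1.35 in siMESH1 and 0.0096, 0.048 and -0.057 in siNT, and the histone H2BC12 read 1.42, 1.45 and 1.51 in siMESH1 and -0.005, -0.018 and 0.023 in siNT. The reticulon RTN2 (1.28), LOC728392 (1.26), the magnesium transporter family member SLC41A3 (1.24), PLXDC2 (1.22), the Ras-like GTPase DIRAS2 (1.20), DENND5B (1.18), the sterol transfer protein GRAMD1C (1.17), the ciliary dynein component DNAI7 (1.16), the quinone reductase TP53I3 (1.10) and the calsyntenin CLSTN2 (1.06) followed, between 2.08-fold and 2.42-fold. These 15 rises and 15 falls were picked among called genes whose siMESH1 and siNT arrays did not overlap. The gap between the groups in the plot of the ranked genes thus follows from that choice.

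**Figure D2:**
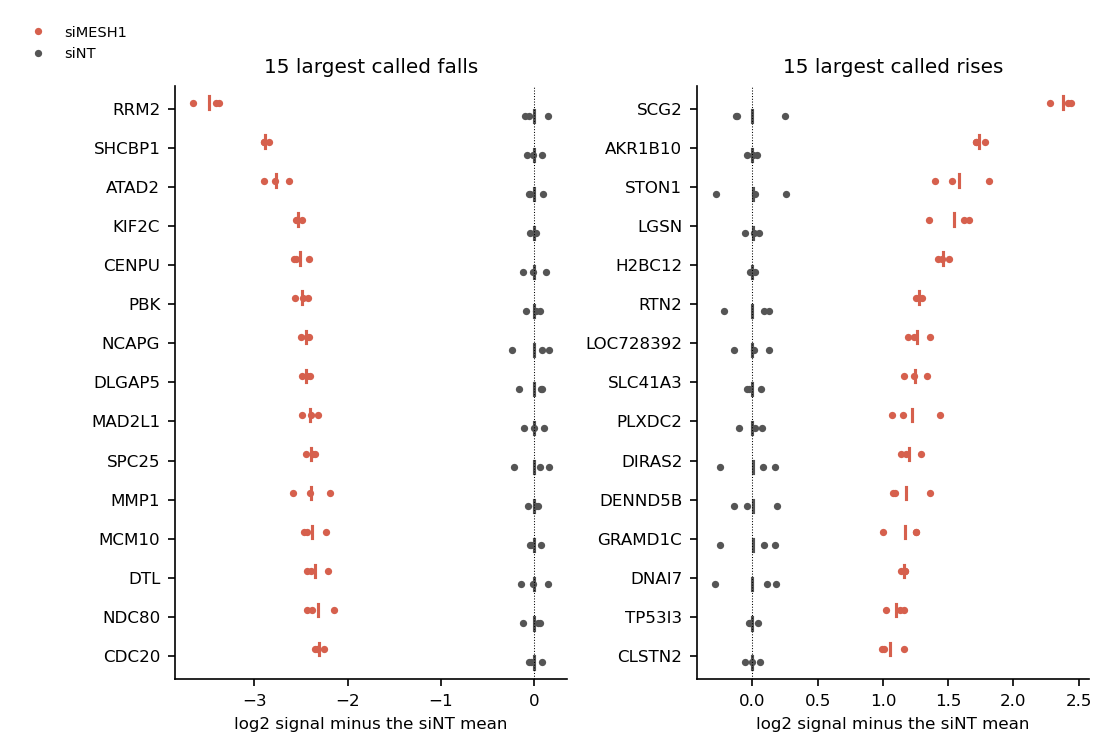
Values of the 15 largest called falls (left) and the 15 largest called rises (right) on each array, as log2 signal minus the siNT mean (horizontal axes), with the 3 siMESH1 arrays above the 3 siNT arrays for each gene and short bars for the mean of 3 arrays. RRM2 lies between -3.66 and -3.38 in siMESH1, and SCG2 between 2.28 and 2.44.

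The promoters of genes with large changes are shown because many cell cycle genes share short promoter elements. The cell cycle homology region (TTTGAA) serves genes of mitosis, E2F-type sites (TTTGGCGC, TTTGCCGC, TTTCGCGC or TTTCCCGC) serve genes of DNA synthesis, and the CCAAT box (CCAAT) binds NF-Y and often stands beside the homology region. Each sequence runs 5′ to 3′ from 250 bases before to 50 bases after the gene start, was taken from RefSeq on GRCh38.p14, and has the matches to these 3 motifs on either strand in capitals. RRM2 at chr2:10122489-10122788 (plus strand), SHCBP1 at chr16:46621330-46621629 (minus strand) and KIF2C at chr1:44739587-44739886 (plus strand) are among the largest falls with a promoter in that table.
RRM2: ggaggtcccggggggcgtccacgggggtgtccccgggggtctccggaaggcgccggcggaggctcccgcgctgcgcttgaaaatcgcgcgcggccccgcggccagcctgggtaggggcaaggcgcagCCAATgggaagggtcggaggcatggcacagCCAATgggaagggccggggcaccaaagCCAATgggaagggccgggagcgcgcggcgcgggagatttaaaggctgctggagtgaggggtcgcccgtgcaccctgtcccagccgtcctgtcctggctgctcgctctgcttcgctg
SHCBP1: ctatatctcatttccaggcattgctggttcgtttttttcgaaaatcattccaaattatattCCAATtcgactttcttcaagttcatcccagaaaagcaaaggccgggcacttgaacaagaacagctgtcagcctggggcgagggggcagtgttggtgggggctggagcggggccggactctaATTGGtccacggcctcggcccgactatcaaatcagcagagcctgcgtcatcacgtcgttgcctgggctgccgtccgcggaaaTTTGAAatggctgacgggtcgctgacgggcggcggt
KIF2C: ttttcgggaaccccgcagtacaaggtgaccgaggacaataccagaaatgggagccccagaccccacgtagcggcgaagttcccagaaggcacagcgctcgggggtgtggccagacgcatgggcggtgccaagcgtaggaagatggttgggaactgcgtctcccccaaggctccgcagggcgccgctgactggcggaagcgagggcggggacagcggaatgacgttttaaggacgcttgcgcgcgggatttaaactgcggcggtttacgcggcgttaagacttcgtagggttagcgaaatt
RRM2 held 3 CCAAT boxes, SHCBP1 held 2 CCAAT boxes and 1 homology region, and KIF2C held none of the 3 motifs in this window. LGSN at chr6:63319934-63320233 and H2BC12 at chr6:27146809-27147108, both on the minus strand, are the largest rises with a promoter in the table.
LGSN: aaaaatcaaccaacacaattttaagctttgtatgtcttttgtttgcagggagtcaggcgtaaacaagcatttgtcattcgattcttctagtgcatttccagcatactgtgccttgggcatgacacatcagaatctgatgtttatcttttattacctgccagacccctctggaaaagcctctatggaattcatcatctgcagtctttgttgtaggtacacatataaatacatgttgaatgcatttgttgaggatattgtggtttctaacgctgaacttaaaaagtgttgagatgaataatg
H2BC12: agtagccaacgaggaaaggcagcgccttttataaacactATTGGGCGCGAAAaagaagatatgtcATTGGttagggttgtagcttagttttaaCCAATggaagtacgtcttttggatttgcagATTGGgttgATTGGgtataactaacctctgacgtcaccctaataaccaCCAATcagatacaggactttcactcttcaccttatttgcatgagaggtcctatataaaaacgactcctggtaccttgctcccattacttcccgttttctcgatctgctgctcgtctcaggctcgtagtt
LGSN held none of the 3 motifs, whereas H2BC12 held 6 CCAAT boxes and 1 E2F-type site, which directly adjoins the first of them. DLGAP5 at chr14:55191536-55191835 and GINS2 at chr16:85688905-85689204, both on the minus strand, were chosen after their values were seen, DLGAP5 as a mitotic gene with the homology region and GINS2 as a DNA synthesis gene with an E2F-type site.
DLGAP5: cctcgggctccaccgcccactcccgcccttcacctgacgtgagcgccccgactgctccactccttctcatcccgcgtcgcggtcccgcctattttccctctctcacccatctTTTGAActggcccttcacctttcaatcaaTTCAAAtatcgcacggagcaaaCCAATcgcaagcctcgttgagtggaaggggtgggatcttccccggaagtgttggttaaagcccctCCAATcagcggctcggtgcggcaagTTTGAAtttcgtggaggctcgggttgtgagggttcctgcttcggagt
GINS2: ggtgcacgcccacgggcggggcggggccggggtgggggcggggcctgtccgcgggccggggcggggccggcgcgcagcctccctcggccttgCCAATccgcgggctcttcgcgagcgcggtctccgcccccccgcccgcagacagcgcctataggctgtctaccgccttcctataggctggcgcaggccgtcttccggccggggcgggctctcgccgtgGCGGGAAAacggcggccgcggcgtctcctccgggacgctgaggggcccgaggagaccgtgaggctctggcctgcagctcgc
DLGAP5 held 3 homology regions and 2 CCAAT boxes, and GINS2 held 1 E2F-type site and 1 CCAAT box.

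Over all genes with a promoter, genes called lower from the mitotic lists held the homology region most often and those from the DNA synthesis lists held E2F-type sites most often. The homology region stood in 18.8% of the 532 promoters of genes called lower, in 9.12% of the 274 of genes called higher and in 11% of the 9562 of all genes tested. Among genes lower by at least 1 the share was 32.2%. It reached 63.8% in the 69 promoters of genes called lower from the mitotic lists and was 6.52% in the 46 from the DNA synthesis lists. E2F-type sites showed the opposite division, at 8.7% of the mitotic and 43.5% of the DNA synthesis promoters, with 10.3% of all genes called lower, 4.74% of those called higher and 4.88% of all genes tested. The CCAAT box, which is common, stood in 75.4% of the mitotic and 54.3% of the DNA synthesis promoters, in 44.9% of genes called lower, in 40.9% of genes called higher and in 37.3% of all genes tested. For the 279 genes called lower that were in no list, the shares were close to those of all genes, at 11.5%, 6.09% and 38.4%. Over all measured members of these lists, called or not, the homology region stood in 56.8% of 88 mitotic promoters and E2F-type sites in 30.6% of 72 DNA synthesis promoters. The CCAAT box stood in 73.9% of these mitotic and 48.6% of these DNA synthesis promoters. Much of the high shares thus goes with membership of the lists, whether or not a gene was called. In all 34796 promoters of the table the homology region stood in 15.2%, E2F-type sites in 3.3% and the CCAAT box in 34.6%. The CHOP and ATF4 composite element TGATGCAA was rare. It stood in 1 of 532 promoters of genes called lower (0.188%) and in 3 of 274 of genes called higher (1.09%). Over all genes tested it stood in 64 of 9562 (0.669%), and counts this small do not separate the groups.

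**Figure D3:**
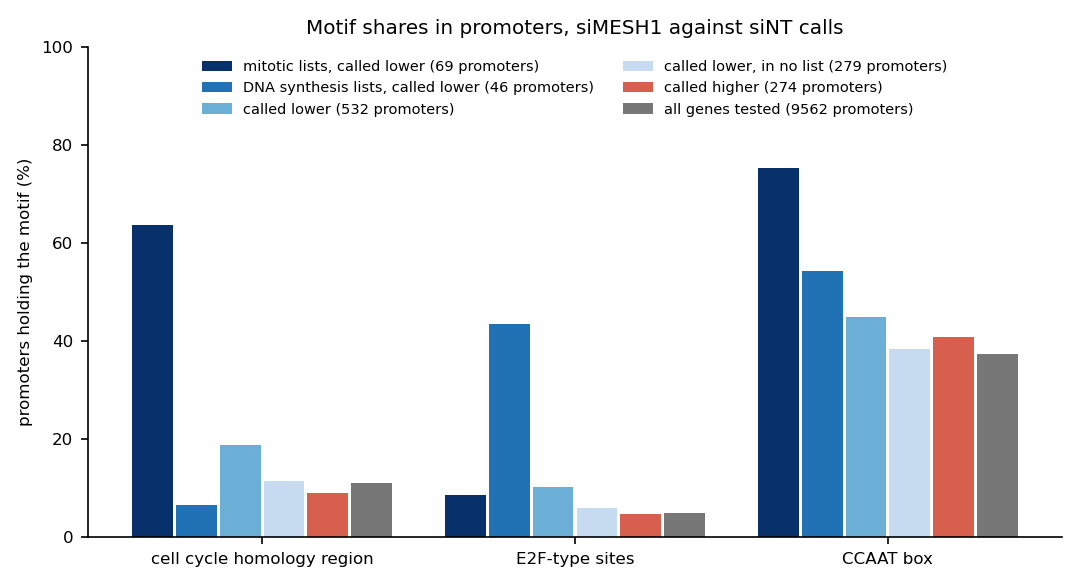
Share of promoters that hold the cell cycle homology region, E2F-type sites or the CCAAT box on either strand (vertical axis, percent, starting at 0), for genes by their call in siMESH1 against siNT. The homology region stands in 63.8% of mitotic promoters of genes called lower and E2F-type sites in 43.5% of DNA synthesis promoters of genes called lower. Over all measured members of these lists, not drawn here, the shares are 56.8% and 30.6%.

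Genes that license and fire replication origins fell almost as a block. Of 25 measured 21 were called lower and 0 higher, with a median of -1.35, against a median of 0.028 and 5.37% called lower over all genes. GINS2, of the GINS complex that joins the helicase, fell 4.05-fold (-2.02, SE 0.058, limma adjusted p = 2.6e-10), with its lowest siMESH1 array at -2.05 and its lowest siNT array at -0.071. CDC45, the helicase partner of GINS, read -2.30, -2.25 and -2.17 in siMESH1 and 0.17, -0.09 and -0.082 in siNT. All 6 subunits of the MCM2-7 helicase fell, MCM4 (-1.66), MCM6 (-1.47), MCM3 (-1.47), MCM2 (-1.41), MCM5 (-1.35) and, with the smallest fold of 2, MCM7, as did the licensing factor CDC6 (-1.94), the licensing inhibitor GMNN (-1.18), the origin recognition subunits ORC6 (-1.58) and ORC1 (-1.52), and the kinase CDC7 (-1.51). At the replication fork 22 of 30 genes fell and 0 rose, with a median of -0.79. TOP2A, the topoisomerase that untangles sister DNA, read -2.14, -2.04 and -1.82 in siMESH1 and 0.10, -0.091 and -0.0084 in siNT. The flap nuclease FEN1 (-1.51), the clamp loader subunits RFC3 (-1.41) and RFC4 (-1.13), the primase PRIM1 (-1.33), the sliding clamp PCNA (-1.16) and the polymerase subunits POLE2 (-1.25), POLA2 (-1.01) and POLE (-0.93) fell with it. Both medians kept their sign under the 3 other scalings tried. In siMESH1 minus siATF4 they were only -0.19 for the origin list and -0.14 for the fork list, so these genes were low in siATF4 as well.

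Nucleotide supply fell in part. Of 26 genes 10 were called lower and 0 higher, with a median of -0.34. Beside RRM2, the large reductase subunit RRM1 read -1.09, -1.06 and -1.06 in siMESH1, against 0.10, 0.065 and -0.16 in siNT, and fell only 2.1-fold. Thymidine kinase TK1 (-1.70), thymidylate kinase DTYMK (-1.16) and CTP synthase CTPS1 (-0.90) also fell. Thymidylate synthase TYMS (-0.78) was called, but its probe sets lay at -1.35 and -0.20 and the call was lost under housekeeping mean centring (-0.45), as was that of SAMHD1 (-0.61, or -0.28), which breaks down deoxyribonucleotides.

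DNA repair genes divided. Of 37 measured 18 were called lower and 1 higher, with a median of -0.44. The falls were led by the mismatch and recombination nuclease EXO1, at -2.20, -1.83 and -2.24 in siMESH1 and 0.039, -0.062 and 0.023 in siNT, followed by RAD51AP1 (-1.79), FANCI (-1.64), the recombination motor RAD54L (-1.39), the glycosylase NEIL3 (-1.37), TRIP13 (-1.26) and the helicase BLM (-1.19). The checkpoint kinase WEE1 fell by 0.96. FANCF rose (0.54), a call that was lost without siNT replicate 3 (0.47), and CHEK1 (-0.43) was not called.

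The genes of mitosis showed the deepest fall of any list. Of 40 mitotic kinases, kinesins and spindle proteins 36 were called lower and 0 higher, with a median of -1.70, a fold of 3.25. Of 29 regulators of G2 and mitosis 21 fell (median -1.35), of 33 kinetochore and checkpoint genes 22 fell (median -1.04), and of 17 condensin and cohesin genes 8 fell (median -0.42), with 0 rises in each. The fall was not particular to siMESH1, since these lists were about as low in siATF4. In siMESH1 minus siATF4 the medians were -0.15 for the mitotic list, -0.10 for the G2 regulators, -0.12 for the kinetochore genes and 0.034 for condensin and cohesin. DLGAP5 read -2.18, -2.53 and -2.24 in siATF4. CDK1, the kinase that starts mitosis, read -2.05, -1.91 and -2.03 in siMESH1, against 0.036, -0.003 and -0.033 in siNT. Its partner CCNB1 read -1.78, -1.77 and -1.69 in siMESH1 and 0.071, -0.021 and -0.05 in siNT. The mitotic kinases AURKB (-1.76), AURKA (-1.40) and PLK1 (-1.21) fell less than CDK1. PLK1 was the least even of them, since its siNT arrays spread over 0.088, 0.32 and -0.41 while its siMESH1 arrays read -1.18, -1.13 and -1.32, still without overlap. The transcription factors that drive these genes were lower as well, MYBL2 at -1.45 and FOXM1 at -1.42. MKI67, the proliferation marker, stood in no list, was chosen after its values were seen, and read -1.44, -1.41 and -1.45 in siMESH1 and 0.036, 0.027 and -0.063 in siNT. In RNA from whole cultures, fewer cells in a phase of the cell cycle and less RNA per cell cannot be told apart.

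Members of 1 family could go apart. Of 30 symbols that start with KIF and a number, 12 were called lower and 0 higher, with a median of -0.061, while housekeeping mean centring gave 10 lower and 5 higher with a median of 0.27. The 11 of them in the mitotic list, such as KIF20A (-2.26), KIF14 (-2.19), KIF15 (-2.04), KIF11 (-1.84) and KIF18A (-1.18), fell. Another of the 12 called falls lay outside that list, so the division was not clean. The transport kinesins KIF3B (0.41), KIF5B (0.14) and KIF1B (0.09), picked after their values were seen, were not called. Of condensin, NCAPG, NCAPG2 (-1.69), NCAPH (-1.69), NCAPD3 (-0.98) and the ATPases SMC4 (-1.13) and SMC2 (-0.99) fell. NCAPD2 (-0.69) was called too, a call lost under housekeeping mean centring (-0.36), whereas the condensin II subunit NCAPH2 (-0.26) was not called. Of cohesin, SMC1A (-0.59) was called, a call lost under housekeeping mean centring (-0.26), and STAG2 (0.47) was not, although STAG2 was called under housekeeping mean (0.80) and median (0.68) centring, by the probe set with the largest SD (0.57) and without siMESH1 replicate 2 (0.52). BUB1 was called at -0.69 although its 5 probe sets ranged between -2.14 and 0.091, and the call was lost under housekeeping mean centring (-0.36).

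Some genes of the G1 machinery fell. Of 29 G1 cyclins, kinases, inhibitors, E2F and RB family genes 6 were lower (20.7%, against 5.37% of all genes) and 1 higher, with a median of -0.067, or 0.26 under housekeeping mean centring. CCND1, cyclin D1, which couples growth signals to the RB protein, read -1.99, -1.95 and -1.84 in siMESH1, against -0.074, 0.025 and 0.049 in siNT (-1.93, SE 0.081, limma adjusted p = 2.4e-09). E2F8, a repressor of the E2F family, read -1.88, -1.83 and -1.71 in siMESH1 and 0.27, -0.10 and -0.17 in siNT. Cyclin E2 (CCNE2, -1.77) fell with probe sets at -2.29 and -1.26. E2F1 itself read -0.73, -0.75 and -0.56 in siMESH1 and -0.26, 0.15 and 0.11 in siNT, and its call (-0.68) was lost under housekeeping mean centring (-0.35). CDKN1A, the p21 inhibitor of cyclin-dependent kinases, rose, at 0.53, 0.60 and 0.68 in siMESH1 and -0.028, 0.0066 and 0.022 in siNT. RB1 (-0.42) and CCND2 (0.41) were not called.

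Of 25 p53 targets 6 rose (24%, against 2.82% of all genes) and 1 fell (4%, against 5.37%), with a median of 0.15. TP53I3 read 1.02, 1.13 and 1.16 in siMESH1, against -0.027, 0.044 and -0.018 in siNT, and the phosphatase PPM1D (0.75), the cyclin CCNG2 (0.74) and ZMAT3 (0.59) rose with CDKN1A. PMAIP1, the NOXA death gene, went the other way, at -1.67, -1.55 and -1.47 in siMESH1 and 0.064, -0.014 and -0.05 in siNT. FBXW7 (0.52) rose too, a call lost with array median centring and without siMESH1 replicate 3 (0.47) or siNT replicate 3 (0.48). PLK2 (0.31) and GADD45A (0.27) were not called.

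Chromatin, nuclear envelope and cytoskeleton genes fell selectively. Of 37 chromatin regulators 10 were lower and 1 higher, with a median of -0.26, or 0.073 under housekeeping mean centring. DNMT1, the maintenance DNA methyltransferase, read -1.23, -1.27 and -1.21 in siMESH1, against -0.0045, -0.016 and 0.02 in siNT, and the histone chaperones ASF1B (-1.64) and CHAF1A (-1.15) and the remodeller HELLS (-1.56) fell with ATAD2. DNMT3A (0.54) rose, a call lost without siMESH1 replicate 3 (0.41) and by the t-test of the methods after adjustment. Histone genes moved in both directions, 4 of 49 higher (8.16%) and 2 lower (4.08%), against 2.82% and 5.37% of all genes, with a median of 0.033. Beside H2BC12, the clustered histone H2AC6 (0.98) and H2BC5 (0.57) rose, and the variant H2AZ1 read -0.81, -0.90 and -0.87 in siMESH1 and -0.032, -0.017 and 0.048 in siNT. Near-identical histone genes may share probes, so single members are uncertain. Of 50 genes of the nuclear envelope, pore and import 11 fell and 1 rose (median -0.19, or 0.14 under housekeeping mean centring), with lamin B1 (LMNB1) at -1.42, -1.47 and -1.55 in siMESH1 and 0.036, 0.0021 and -0.038 in siNT and the importin KPNA2 at -1.18. Of 24 tubulins 5 fell and 0 rose (median -0.24, or 0.093 under housekeeping mean centring), namely TUBB4B (-1.11), TUBA4A (-1.01), TUBB6 (-0.97), TUBB3 (-0.68) and the centrosomal TUBG1 (-0.56), the last 2 losing their calls under housekeeping mean centring (-0.35 and -0.23).

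Genes of the translation apparatus were hardly called on the deposited scale. None of 49 translation factors, 41 genes of the nucleolus and ribosome assembly or 18 cytosolic aminoacyl-tRNA synthetases was called. The medians were 0.011 for translation factors, or -0.014 with array median centring, -0.13 for the nucleolus, or 0.20 under housekeeping mean centring, and -0.21 for the synthetases, or 0.12 there. Of 59 cytosolic ribosomal proteins 1 was lower, the paralogue RPL39L (-0.67, or -0.33 under housekeeping mean centring, where the call was lost), with a median of 0.087. Of 51 mitochondrial ribosomal proteins 1 was lower (median -0.12, or 0.21). The other cytosolic ribosomal proteins reached 0.30 at most. These counts rest on the scaling. Under housekeeping mean centring 12 of the 49 translation factors (median 0.34) and 15 of the 59 cytosolic ribosomal proteins (median 0.42) were called higher.

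Genes of the integrated stress response, both upstream and downstream of ATF4, moved in both directions. ATF4 itself read -0.015, -0.10 and 0.035 in siMESH1, against -0.10, 0.003 and 0.10 in siNT, so the groups overlapped. Of 21 integrated stress response regulators 2 were higher (9.52%) and 3 lower (14.3%), against 2.82% and 5.37% of all genes. Their median was 0.034. TRIB3, a pseudokinase that ATF4 induces, read -0.95, -0.96 and -0.92 in siMESH1 and -0.10, 0.067 and 0.032 in siNT. KLHL24 rose (0.72), with probe sets between 0.25 and 1.05. ATF3 read 0.37, 0.34 and 0.37 in siMESH1 and 0.012, 0.13 and -0.14 in siNT, below the fold minimum, and was called under housekeeping mean centring (0.69). DDIT3, which encodes CHOP, read -0.12, -0.12 and -0.14 in siMESH1 and 0.082, 0.024 and -0.11 in siNT, and was not called (limma adjusted p = 0.15). XBP1 (-0.25), a factor of the unfolded protein response, DNAJB9 (-0.32), its chaperone target, and the cell cycle kinase CDK2 (-0.23) were not called either. Of 36 amino acid and one-carbon genes 2 were higher (5.56%) and 2 lower (5.56%), with a median of -0.069, or 0.26 under housekeeping mean centring. CTH, which makes cysteine from cystathionine, read 0.67, 0.80 and 0.61 in siMESH1 and 0.078, 0.16 and -0.24 in siNT, and glutamine synthetase GLUL (0.60) also rose. MTHFD2, the mitochondrial folate enzyme, read -1.27, -1.28 and -1.20 in siMESH1 and 0.0074, 0.042 and -0.05 in siNT. MTHFD1 (-0.41) and the transporter SLC7A5 (-0.46) were not called.

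Genes of protein folding and turnover were called lower in 7.5% (endoplasmic reticulum), 13.9% (heat shock chaperones) and 10.3% (proteasome), against 5.37% of all genes. The shares called higher were 2.5%, 5.56% and 0%, against 2.82%. Of 40 endoplasmic reticulum genes 3 fell and 1 rose (median -0.19, or 0.14 under housekeeping mean centring). ERO1A, the oxidase that forms disulfide bonds, read -1.08, -1.17 and -1.31 in siMESH1, against -0.0037, 0.061 and -0.057 in siNT. HERPUD1 read 0.56, 0.54 and 0.43 in siMESH1 and -0.041, 0.044 and -0.0024 in siNT, and its call (0.51) was lost with array median centring or without siMESH1 replicate 1 (0.48), siMESH1 replicate 2 (0.49) or siNT replicate 1 (0.49). Of 36 heat shock chaperones 5 fell and 2 rose (median -0.27, or 0.061). The mitochondrial chaperonin HSPD1 (-0.79) fell, a call lost under housekeeping mean centring (-0.46), and the small heat shock protein CRYAB (0.65) and the co-chaperone DNAJB4 (0.71) rose. Of 39 proteasome genes 4 fell and 0 rose (median -0.27, or 0.062), led by the assembly chaperone PSMG1, at -1.10, -1.09 and -1.12 in siMESH1 and -0.043, 0.044 and -0.0012 in siNT, and the core subunit PSMA5 (-0.83).

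Genes of NADPH supply and redox control were called about as often as all genes. They were higher in 4.55% and lower in 4.55%, against 2.82% and 5.37% of all genes. Of 44 genes of NADPH supply and redox control 2 were higher and 2 lower, with a median of 0.018, or -0.0072 with array median centring. KEAP1, the adaptor that marks NRF2 for destruction, read -0.85, -0.86 and -0.79 in siMESH1, against 0.0017, 0.037 and -0.038 in siNT. Thioredoxin reductase TXNRD1, an NRF2 target that spends NADPH, read 0.78, 0.69 and 0.64 in siMESH1 and -0.041, 0.056 and -0.015 in siNT, and the thioredoxin inhibitor TXNIP read 0.76, 0.77 and 0.82 in siMESH1 and -0.041, 0.075 and -0.034 in siNT. NQO1, another NRF2 target, was not called (-0.46), with probe sets between -0.64 and -0.16. NADK, the cytosolic kinase that makes NADP, read 0.054, 0.073 and -0.0026 in siMESH1 and -0.089, 0.035 and 0.054 in siNT. The groups overlapped for NADK (limma adjusted p = 0.63). Of 39 aldo-keto reductases and detoxification genes 4 were higher (10.3%) and 2 lower (5.13%), with a median of 0.017, or -0.0081 with array median centring. AKR1C2 (0.56) rose beside AKR1B10, and the exporter ABCC4 (-0.96) fell. AKR1C2 has close paralogues from which its probes may not part it.

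Some iron and lipid genes changed strongly. Of 25 genes of iron handling and ferroptosis 2 were higher (8%) and 4 lower (16%), against 2.82% and 5.37% of all genes. Their median was 0.0056, or -0.02 with array median centring. TFRC, the transferrin receptor that brings iron into cells, read -1.19, -1.12 and -1.20 in siMESH1, against 0.037, -0.012 and -0.025 in siNT. NCOA4, the receptor that sends ferritin to lysosomes, rose (0.55). ACSL4, which loads polyunsaturated fatty acids into lipids open to peroxidation, read 0.66, 0.81 and 0.59 in siMESH1 and 0.07, -0.33 and 0.26 in siNT, and its call (0.69) was lost by the t-test of the methods after adjustment. Of 36 genes of fatty acid and lipid enzymes 3 were lower (8.33%) and 0 higher (median 0.039). ACLY, which makes cytosolic acetyl-CoA, read -1.46, -1.41 and -1.48 in siMESH1 and 0.029, 0.01 and -0.039 in siNT. SLC25A1, the citrate carrier that feeds ACLY, was at -0.76, or -0.42 under housekeeping mean centring, where the call was lost. Of 26 sterol genes 4 were lower and 0 higher (median -0.021, or 0.31 under housekeeping mean centring), led by INSIG2 (-1.05), which holds back sterol synthesis.

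Of 49 hypoxia-inducible and glycolysis genes 11 were lower (22.4%, against 5.37% of all genes) and 0 higher. Their median was -0.17, or 0.16 under housekeeping mean centring. Lack of VHL, as in RCC4, switches on hypoxia-inducible genes, but the list also holds other genes, such as HIF1A and VHL itself. CA12, a carbonic anhydrase, read -1.62, -1.62 and -1.58 in siMESH1, against -0.083, 0.083 and 0.0001 in siNT. The enolase ENO2 (-1.04) and the hormone STC1 (-0.85) fell with it. VEGFA read -0.66, -0.64 and -0.64 in siMESH1 and -0.021, 0.012 and 0.01 in siNT, and its call (-0.65) was lost under housekeeping mean centring (-0.32), as were those of the hexokinases HK2 (-0.64, or -0.31) and HK1 (-0.60, or -0.27). MXI1, another hypoxia target, was not called (0.46). In the mitochondrion 3 of 70 oxidative phosphorylation genes (4.29%) and 2 of 50 import and citric acid cycle genes (4%) were lower and 0 higher. Their medians were -0.079 and -0.10, or 0.25 and 0.23 under housekeeping mean centring. Of 28 phospholipase and eicosanoid genes 2 were higher (7.14%) and 1 lower (3.57%), against 2.82% and 5.37% of all genes. Their median was -0.0028, or 0.33 under housekeeping mean centring.

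Among immediate early and inflammatory genes, 14.3% of the AP-1 and ERK list, 12.5% of the interferon list and 15.4% of the coagulation list were called lower. The share was 6.98% for cytokines and NF-kB targets and 5.37% over all genes. Of 42 genes of AP-1 and the ERK feedback 6 were lower and 1 higher (median 0.0088, or -0.016 with array median centring). EGR1 read -1.52, -1.60 and -1.64 in siMESH1, against 0.12, 0.069 and -0.19 in siNT, with probe sets at -2.16 and -1.02. PHLDA2 (-1.35) fell, and the ERK inhibitor SPRY2 (0.76) rose while its relative SPRY1 (-0.60) fell, the last call lost under housekeeping mean centring (-0.27). Of 43 cytokines and NF-kB targets 3 were lower and 2 higher (median 0.014, or -0.011 with array median centring). PTGS2, the inducible prostaglandin synthase, read -1.20, -1.22 and -1.23 in siMESH1 and -0.10, 0.23 and -0.13 in siNT, and complement C3 fell (-1.04). CXCL8 rose (0.54) with probe sets at 0.19 and 0.89, a call lost without siMESH1 replicate 2 (0.46) or siNT replicate 2 (0.47). Of 48 interferon response genes 6 were lower and 1 higher (median -0.11, or 0.22 under housekeeping mean centring). USP18 (-0.75) and OAS3 (-0.64) fell, both calls lost under housekeeping mean centring (-0.42 and -0.31), and TRIM22 (0.59) rose. In the coagulation list, 4 of 26 lower and 1 higher (median -0.051, or 0.28 under housekeeping mean centring), the thrombin receptor F2R rose (0.86) and the inhibitor TFPI2 fell (-0.88).

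Growth factor, adhesion and matrix genes held further single changes. Of 60 growth factors and receptors 4 were lower (6.67%) and 2 higher (3.33%), near the 5.37% and 2.82% of all genes (median 0.033). IRS2, the insulin receptor substrate, read -1.17, -1.18 and -1.12 in siMESH1, against 0.0064, -2.5e-05 and -0.0064 in siNT (-1.16, SE 0.042, limma adjusted p = 9.2e-10). The receptors INSR (0.56) and IGF1R (0.55) rose, with probe sets between 0.16 and 0.96 and between -0.037 and 0.87. Of 25 YAP and TAZ genes 2 were lower (8%) and 1 higher (4%), with a median of 0.12. WWTR1, which encodes TAZ, read -1.16, -1.26 and -1.13 in siMESH1 and 0.091, -0.03 and -0.061 in siNT, and of its targets tissue factor F3 (-1.62) fell while CCN2 (0.75) rose. Of 42 genes of the TGF-beta pathway 2 were higher (4.76%), SMAD7 (0.66) and ID3 (0.59), and 1 lower (2.38%), with a median of 0.13. Of 71 matrix genes 4 were higher (5.63%) and 2 lower (2.82%), with a median of 0.043. The laminin chain LAMB3 read -1.52, -1.47 and -1.43 in siMESH1 and -0.14, 0.13 and 0.015 in siNT, and COL18A1 (0.60) rose. Fibronectin FN1 (0.72) also rose, but the call was lost (0.42) when probe sets open to cross-hybridisation were left out. Among 46 matrix proteases and inhibitors 4 were lower (8.7%) and 1 higher (2.17%), with a median of 0.056. Beside MMP1, the urokinase receptor PLAUR (-0.82) fell, and the PLAUR call was lost under housekeeping mean centring (-0.49).

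Of 59 integrins, cadherins, keratins and junction genes 5 were lower (8.47%) and 2 higher (3.39%), against 5.37% and 2.82% of all genes. Their median was 0.021, or -0.0046 with array median centring. The integrin subunits went apart, with ITGAE at -1.76, -1.68 and -1.84 in siMESH1 and -0.011, 0.12 and -0.10 in siNT, and ITGA1 at 1.01, 1.00 and 1.09 in siMESH1 and 0.062, -0.018 and -0.044 in siNT. The mucin MUC1 fell by 0.93. Of 40 renal tubule genes 1 was higher (2.5%), the aminopeptidase ENPEP (0.73), and 1 lower (2.5%), the bicarbonate cotransporter SLC4A4 (-0.79). The SLC4A4 call was lost under housekeeping mean centring (-0.46), where the list median of -0.025 became 0.31. Of 20 markers of leukocytes, endothelium and red cells 0 were called, with values between -0.17 and 0.25.

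Genes of cilia formed the list with the highest median. Of 69 measured 7 were higher and 0 lower, with a median of 0.17, against 2.82% called higher over all genes. DYNC2LI1, of the dynein that carries cargo back along the cilium, read 0.91, 0.82 and 0.78 in siMESH1, against -0.019, 0.052 and -0.033 in siNT, and DNAI7 (1.16), DNAI4 (0.69) and IFT22 (0.62) rose too. BBS4 (0.57) was called too, a call lost without siMESH1 replicate 3 (0.46). Beyond that list, genes linked to cilia and chosen after their values were seen were also called higher, namely the kinases CILK1 (1.01) and TTBK2 (0.88) and the tubulin glutamylase TTLL1 (0.84). Of 73 autophagy and lysosome genes 5 were higher (6.85%) and 1 lower (1.37%), with a median of 0.16. ATG14 read 0.81, 0.97 and 0.77 in siMESH1 and 0.14, 0.06 and -0.20 in siNT. ULK1 (0.60), which starts autophagy, and the protease CTSH (0.70) rose too. Optineurin OPTN (-0.75) fell, with probe sets at -1.36 and -0.14 and its call lost under housekeeping mean centring (-0.42).

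Secretory and neuronal genes moved in both directions. Of 38 measured 4 were higher (10.5%) and 6 lower (15.8%), against 2.82% and 5.37% of all genes. Their median was 0.023, or -0.0017 with array median centring. Another granin, CHGB, was higher like SCG2, at 0.78, 0.60 and 0.44 in siMESH1 and 0.24, -0.26 and 0.018 in siNT, a call (0.61) lost without siNT replicate 2 (0.48) and by the t-test of the methods after adjustment, and the synaptic adhesion protein NRXN3 rose (0.79). SCG5, a chaperone of the granule, read -1.16, -1.18 and -1.37 in siMESH1, against 0.10, 0.45 and -0.55 in siNT, and the neurofilament NEFM read -1.31, -1.10 and -1.20 in siMESH1 and 0.029, 0.16 and -0.19 in siNT. SCG5 had a wide spread in siNT, and its call was lost by the t-test of the methods after adjustment. The reticulons divided, with RTN2 higher and RTN4 (-0.94) lower. Of 20 clock genes 4 were lower (20%) and 2 higher (10%), with a median of -0.016, or 0.32 under housekeeping mean centring. CRY1 (-1.02) and BMAL2 (-0.92) were lower. NR1D2 (0.78) was higher, at 0.59, 0.71 and 1.04 in siMESH1 and 0.11, -0.02 and -0.093 in siNT. Of 77 splicing factors 4 were lower (5.19%) and 1 higher (1.3%), with a median of -0.11, or 0.22 under housekeeping mean centring. HNRNPAB (-1.20) led the falls and RBFOX2 (0.87) rose. Of 233 solute carriers 12 were lower (5.15%) and 6 higher (2.58%), about the shares of all genes (median 0.0017, or -0.023 with array median centring). Among them were the inositol carrier SLC5A3 (-0.98) and the lactate carrier family member SLC16A4 (0.64).

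**Figure D4:**
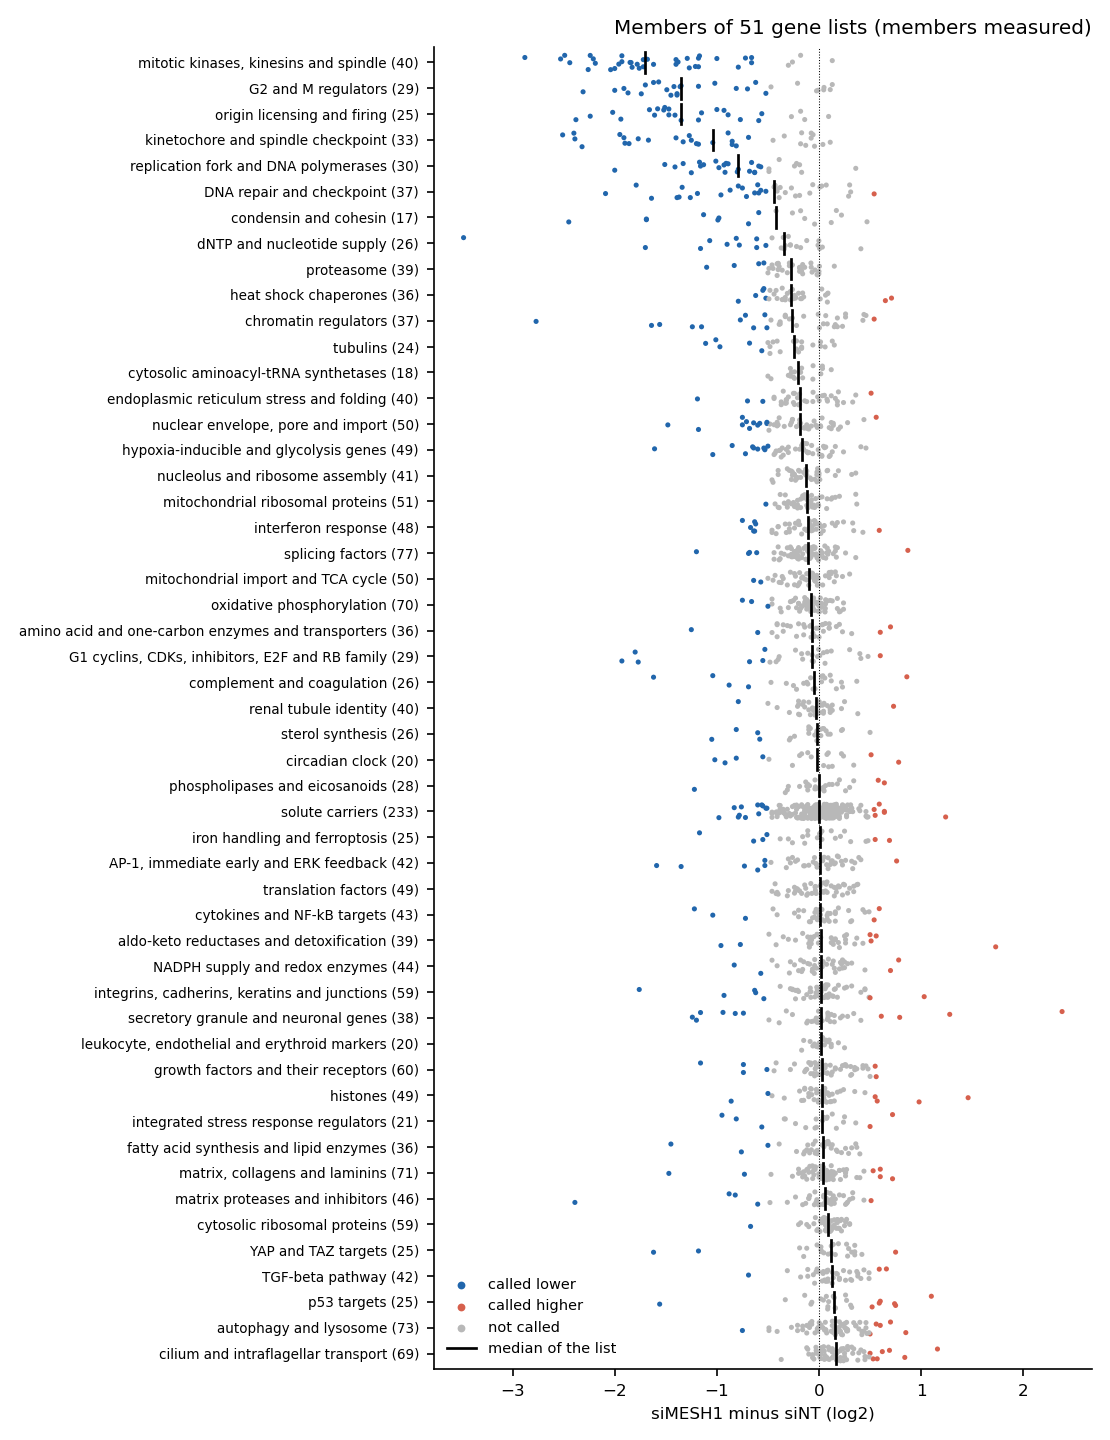
Change in siMESH1 minus siNT on the log2 scale (horizontal axis) for each member of 51 gene lists (rows, with the number measured), coloured by call and with a bar at the list median. The mitotic list lies at a median of -1.70 and the cilium list at 0.17, and the medians between -0.33 and 0 rest on the scaling, since 21 of them turn positive under housekeeping mean centring.

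Many called genes stood in none of the 51 lists, and the strongest of them are named here after their values were seen. The membrane protein PAQR3 read -2.15, -2.34 and -2.25 in siMESH1, against 0.04, -0.019 and -0.021 in siNT. NETO2, an auxiliary subunit of kainate receptors, read -2.17, -2.14 and -2.22 in siMESH1 and 0.0064, 0.053 and -0.059 in siNT, and had the second smallest adjusted p of all genes (limma adjusted p = 5.4e-11). The cytidine deaminase APOBEC3B (-2.18), the PCNA-binding protein PCLAF (-2.14), the mitochondrial serine carrier SFXN1 (-1.95), the Arf regulator ASAP2 (-1.79), the tetrahydrobiopterin enzyme PTS (-1.76) and the lectin SIGLEC15 (-1.65) followed. HDDC2, which shares the HD domain of MESH1 and is a different gene, read -1.35, -1.31 and -1.46 in siMESH1 and 0.037, 0.082 and -0.12 in siNT. Among rises outside the lists were the chemokine receptor ACKR3 (0.86), the kelch protein KLHL4 (0.96), the desmosome linker periplakin PPL (1.00) and the potassium channels KCNJ16 (0.89) and KCNJ13 (0.95). Symbols that start with ZNF and a number, zinc finger genes, were called higher in 18 of 235 (7.66%) and lower in 2 (0.851%), with a median of 0.11 that stayed above 0 under the 3 other scalings, and were picked after their values were seen from 81 symbol stems with at least 15 genes. ZNF354A (0.95), ZNF12 (0.85) and ZNF91 (0.78) were among the rises, and ZNF268 (-1.02) fell. By chromosome the share called lower ran between 2.72% on chromosome 19 and 8.06% on chromosome 8.

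The effect of siMESH1 could be read a second time in arrays that this contrast did not use, as siMESH1+siATF4 against siATF4. The ACTB difference between 3' and 5' probe sets was between -0.453 and -0.214 in siMESH1+siATF4 and between -0.373 and -0.209 in siATF4, against -0.063 to 0.062 in siNT, and spike-in means reached 0.155 in siMESH1+siATF4 and 0.312 in siATF4, against 0.066 in siNT. The part of these shifts in the contrast and in the interaction was not tested. In that contrast 42 genes were called higher (0.351%) and 153 lower (1.28%), far fewer than in siMESH1 against siNT. Of the 337 genes higher with siMESH1 alone 27 were also higher in that contrast (8.01% of the 337 and 64.3% of the 42). Of the 643 lower with siMESH1 alone 143 were also lower (22.2% of the 643 and 93.5% of the 153), and 0 genes were called in opposite directions. The median change of the 643 was -0.27 in that contrast, and that of the 337 was 0.26. Signs were shared by 608 of the 643 (94.6%, against 50.3% of all genes below 0) and by 324 of the 337 (96.1%, against 49.7% of all genes above 0). Genes chosen for a large change in one contrast are set here beside a contrast in which they were not chosen, so smaller values there are not a test of a difference.

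The difference between the contrasts was tested by the interaction, defined as siMESH1+siATF4 minus siATF4, less siMESH1 minus siNT, and 516 genes were called in it (4.31%). On the scale of differences from siNT, RRM2 read -3.30, -3.63 and -3.36 in siMESH1+siATF4 and -1.88, -2.07 and -1.97 in siATF4, so it was low in siATF4 alone and about as low with both siRNAs as in siMESH1 (-3.66 to -3.38). The step on adding siMESH1 to siATF4 was -1.45, against -3.48 from siNT, an interaction of 2.03 (SE 0.15, limma adjusted p = 5.1e-06). ATAD2 had the largest interaction of the ranked genes, 2.25, with a step of -0.52, since it read -2.22, -2.29 and -2.08 in siMESH1+siATF4 and -1.70, -1.75 and -1.58 in siATF4. NDC80 read -1.75, -1.92 and -1.86 in siMESH1+siATF4 and -1.21, -1.51 and -1.56 in siATF4, a step of -0.42 that was not called, with an interaction of 1.90. MMP1 read -2.78, -2.68 and -2.58 in siMESH1+siATF4 and -0.92, -0.73 and -1.16 in siATF4, a step of -1.75 with an interaction of 0.64 (limma adjusted p = 0.019). CCND1 stood at -1.63 there and NEFM at -1.32, and their interactions of 0.30 and -0.12 were not called. The rises AKR1B10 and TP53I3 had small steps for different levels. AKR1B10 was below siNT in both groups, at -0.15, -0.25 and -0.34 in siMESH1+siATF4 and -0.33, -0.24 and -0.49 in siATF4 (step 0.11, interaction -1.63). TP53I3 was high in both, at 0.99, 1.01 and 0.90 in siMESH1+siATF4 and 0.80, 0.95 and 0.97 in siATF4 (step 0.061, interaction -1.04). LGSN rose by 1.59 there, with an interaction of 0.049 (limma adjusted p = 0.88), and CTH by 0.54, with an interaction of -0.16 (limma adjusted p = 0.49). EFEMP1, a matrix protein chosen after its values were seen, was at 1.24 there and at 0.60 with siMESH1 alone, the last a call lost without siNT replicate 1 (0.50), with an interaction of 0.64 (limma adjusted p = 0.0082).

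**Figure D5:**
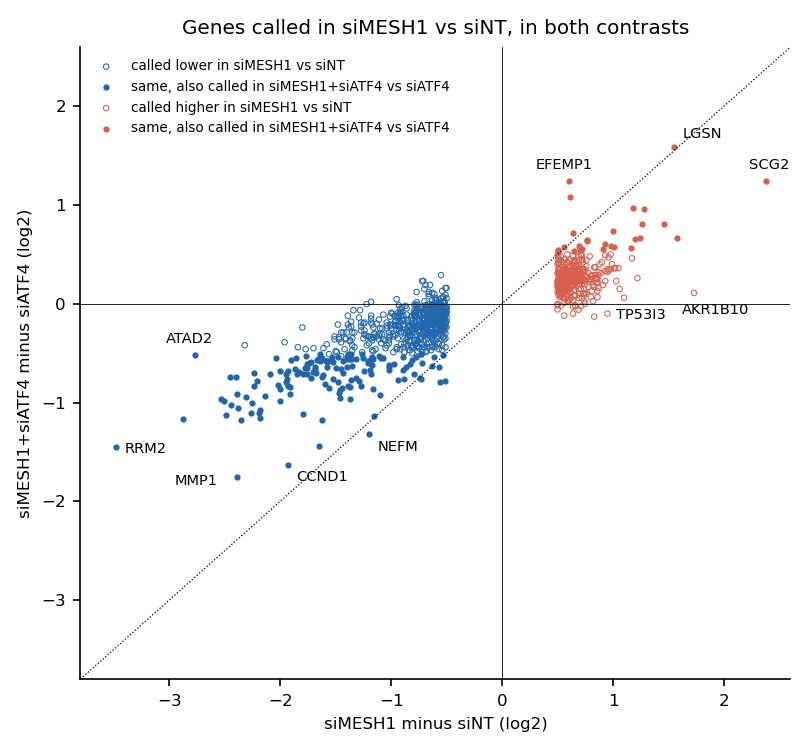
Genes called in siMESH1 against siNT, by their change in that contrast (horizontal axis) and in siMESH1+siATF4 minus siATF4 (vertical axis), both on the log2 scale, with filled points for genes called in both and a dotted line of equal change. RRM2 lies at -3.48 and -1.45, and AKR1B10 at 1.73 and 0.11.

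Set directly against the other single silencing, siMESH1 against siATF4, 468 genes were higher (3.91%) and 568 lower (4.75%). That contrast shares the siMESH1 arrays with siMESH1 against siNT, so the values are given side by side. ATF4 was 2.28 higher in siMESH1 than in siATF4. RRM2 (-1.51) and MMP1 (-1.46) were lower in siMESH1 than in siATF4, whereas TOP2A (-0.0028), CCNB1 (-0.0021) and DLGAP5 (-0.13) were not called between them. SCG2 was 1.47 higher in siMESH1, AKR1B10 2.09 higher and DIRAS2 1.71 higher. TFRC (-1.20), ACLY (-1.10), LAMB3 (-2.47) and CA12 (-1.56) were also lower in siMESH1 than in siATF4, and BMAL2 was 1.63 higher. Of the 40 genes of the mitotic list 5 were lower and 2 higher in siMESH1 than in siATF4, with a median of -0.15, and of the 69 cilium genes 14 were higher and 0 lower, with a median of 0.14.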

How the data were processed

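RNA of 12 RCC4 cultures was hybridised to Affymetrix human expression arrays. The authors deposited log2 values made by RMA in Affymetrix Expression Console, from which the siNT mean of each probe set had been subtracted (here within 1.20e-04 of 0), so no absolute level or depth is held. No source used here gives the versions of these tools.

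Of 22277 probe sets, 62 were controls, 19064 carried exactly 1 symbol in the platform annotation (19052 matched RefSeq by Entrez number), 2108 none and 1043 several. Probe sets with 1 symbol were averaged into 11963 genes, 4310 of them with several probe sets. Group means were fitted to all 12 arrays without a block with limma 3.58.1 (R 4.3.3), and moderated tests were adjusted by Benjamini-Hochberg over all genes. The steps were tested on simulated data. Of all genes, the 15 largest called rises and 15 largest called falls whose siMESH1 and siNT arrays did not overlap could be named. So could 15 genes the study names, the called members of each list and up to 4 uncalled ones. The members and lists were chosen with earlier results of these data known. Replicate numbers were checked for pairing, and deviations of same-numbered siMESH1 and siNT arrays correlated at -0.08, 0.043 and 0.042, so they were not taken as pairs. Each limma p tests a difference of group means against the spread between arrays of a group. That spread was pooled over all 12 arrays and moderated across genes. In all 12 alternatives were run, besides leaving out each array. Promoters came from RefSeq on GRCh38.p14 and covered 9562 of the 11963 genes. HDDC3 was not analysed here, and some items are not reported here.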

Additional observations from a re-analysis of the deposited data

Results flagged for a closer look

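The effect of siMESH1 differed with and without siATF4, by the limma interaction test, for 26 of the 42 largest changes and genes the study names that were measured, against 4.31% of all genes. Most of them were picked for a large difference between siMESH1 and siNT, which is a term of the interaction, so this selection by itself raises the share. The interaction is the siMESH1 effect beside siATF4 minus that beside siNT, so a positive value for a gene that fell means a smaller step beside siATF4, whatever its level in siATF4 alone. For genes that fell it was 2.25 for ATAD2, 2.03 for RRM2, 1.90 for NDC80, 1.71 for SHCBP1, 1.71 for NCAPG, 1.66 for MAD2L1, 1.57 for KIF2C, 1.53 for CENPU, 1.48 for SPC25, 1.42 for DLGAP5, 1.37 for CDC20, 1.36 for PBK, 1.32 for MCM10, 1.17 for DTL, 0.79 for ACLY and 0.64 for MMP1. For genes that rose it was -1.63 for AKR1B10, -1.14 for SCG2, -1.04 for TP53I3, -0.96 for PLXDC2, -0.91 for STON1, -0.91 for CLSTN2, -0.71 for GRAMD1C, -0.65 for H2BC12, -0.60 for DNAI7 and -0.57 for SLC41A3. Of the 195 other genes named here, 126 were called in the interaction, against the same 4.31% of all genes and with the same selection, since most were named for a call in siMESH1 against siNT.

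Probe sets that carry no symbol or several entered no gene. Tested apart, 165 of 3151 were called between siMESH1 and siNT (5.24%), 68 higher and 97 lower.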

How the results depend on the processing

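Between siMESH1 and siNT, 980 genes were called (337 higher, 643 lower), and both the fold minimum and the scaling of the arrays moved these counts. Housekeeping mean centring gave 2817 (2526 higher, 291 lower), of which 628 were calls of the deposited scale, and housekeeping median centring gave 1591 (1216 higher, 375 lower), with 712 such calls. These settings shift every gene by the same amount within an array, and 21 of 51 list medians changed sign with the first, 17 with the second and 10 with array median centring, which gave 993 genes (289 higher, 704 lower). No fold minimum gave 4019 (2066 higher, 1953 lower) and a minimum of 1 gave 239 (21 higher, 218 lower). Taking the probe set with the largest SD gave 508 genes higher. The replicate block gave 978, although the numbers do not pair the arrays, and changed no call of a named gene. Without 1 array the count ran between 984 and 1023, with 308 to 389 higher and 614 to 686 lower, and 8 of 216 named called genes lost their call in at least 1 of these fits. For siMESH1+siATF4 against siATF4 the count of 195 became 1403 without a fold minimum, 21 with a minimum of 1 and 122 with the t-test of the methods after adjustment, and housekeeping mean centring gave 91 higher and 113 lower, against 42 and 153. For siMESH1 against siATF4 the count of 1036 became 4004 and 165 with the same fold settings, and housekeeping mean centring gave 1026 higher and 302 lower. The interaction count of 516 became 1457 with housekeeping mean centring. Of genes that were not called, these changed sign. ATF4 (-0.028) was 0.30 with housekeeping mean and 0.18 with housekeeping median centring and ran between -0.079 and 0.021 without 1 array, above 0 without siMESH1 replicate 2 (0.01) or siNT replicate 3 (0.021). DDIT3 (-0.13) was 0.20 and 0.085 with the housekeeping settings, and CDK2 (-0.23), XBP1 (-0.25), DNAJB9 (-0.32) and NCAPH2 (-0.26) were 0.10, 0.085, 0.015 and 0.07 with housekeeping mean centring. NADK (0.041) was -0.12 by the probe set with the largest SD and ran between -0.003 (without siNT replicate 1) and 0.068 without 1 array. By other probe set choices CDK2 (-0.63), RB1 (-0.67), NQO1 (-0.64) and DNAJB9 (-0.60) were called lower, NCAPH2 (-0.55) too, and STAG2 (0.57) higher. The cause of these shifts was not tested. Signal over background could not be read from differences, so genes near background could not be told from genes that did not change.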
